A study of Mus musculus with 2 samples.

Results

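Chromosome 10 of the mouse carried 6174 of the 77295 peaks that an ETS1 antibody gave in aortic endothelial cells and 7142 of the 63556 peaks that an ETS2 antibody gave. The members are all peaks on this chromosome in both lists, and the chromosome was chosen by the number of peaks per Mb, as an autosome dense in both. Density is therefore given below as a description only. A peak is a short stretch of genome where more sequenced chromatin fragments piled up than a threshold allows. Both groups were cultured endothelial cells isolated from the aorta of wild-type mice and grown in DMEM-F12 medium at 5% CO2, with heparin, an endothelial growth supplement and 20% bovine serum. For each group, 10 µg of ETS1 or ETS2 antibody precipitated chromatin, which was sequenced as single-end reads (ChIP-seq). Each antibody had 1 library and no replicate, so differences between the lists carry no test here. Neither an input nor a control antibody library was analysed here, and the number of mice, their age and their sex were not given in the sources used here. Intervals are 95% Wilson intervals of shares and cover counting error only.

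ETS proteins are transcription factors that share a winged helix-turn-helix domain, which contacts a GGAA core in DNA. In promoters the core is often embedded in the longer sequence CCGGAAGT, which holds a CG dinucleotide. ETS1 and its close relative ETS2 are phosphorylated by ERK kinases, and in blood vessels both have been linked to endothelial survival and angiogenesis. The cell type could not be checked from these data, since peaks measure chromatin and not expression.

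The promoters of 6 genes show what the peaks at gene starts looked like in sequence. They are shown as examples of promoters with centres of both lists, of the ETS1 list alone and of the ETS2 list alone. Each is the RefSeq window of 300 bases, from 250 before to 50 after the transcription start, in GRCm38.p6, written 5′ to 3′ on the strand of the gene. Capitals mark CCGGAA or its reverse complement TTCCGG, and positions count from the start of transcription to the first base of the match. Map2k2, Frs2 and Tcf3 follow from the rule for named genes, and Ndufs7, Cited2 and Mcm9 were chosen after their values were seen. Ndufs7 (chr10:80249199-80249498, plus strand), a subunit of mitochondrial complex I, held centres of both lists and a match at -26 inside both peaks. Cited2 (chr10:17722978-17723277, plus strand), a coactivator that restrains hypoxia signalling, held both centres and a match at -98 inside both peaks. Map2k2 (chr10:81105665-81105964, plus strand), the ERK kinase MEK2, held both centres and no match. Frs2 (chr10:117148425-117148724, minus strand), an adaptor of FGF receptors, held an ETS1 centre only and matches at -96 and -62, the latter within CCGGAAGT and inside the ETS1 peak. Mcm9 (chr10:53629908-53630207, minus strand), a helicase of DNA repair, held an ETS1 centre only and matches at -5 and 14, both inside the ETS1 peak. Tcf3 (chr10:80433586-80433885, minus strand), an E protein, held an ETS2 centre only and a match at -248, within CCGGAAGT and inside the ETS2 peak.
Ndufs7: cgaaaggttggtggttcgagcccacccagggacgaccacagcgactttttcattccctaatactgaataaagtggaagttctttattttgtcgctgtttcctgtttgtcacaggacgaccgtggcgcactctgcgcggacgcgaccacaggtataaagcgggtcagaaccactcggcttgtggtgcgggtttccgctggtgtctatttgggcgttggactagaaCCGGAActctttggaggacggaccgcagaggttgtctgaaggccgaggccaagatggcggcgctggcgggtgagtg
Cited2: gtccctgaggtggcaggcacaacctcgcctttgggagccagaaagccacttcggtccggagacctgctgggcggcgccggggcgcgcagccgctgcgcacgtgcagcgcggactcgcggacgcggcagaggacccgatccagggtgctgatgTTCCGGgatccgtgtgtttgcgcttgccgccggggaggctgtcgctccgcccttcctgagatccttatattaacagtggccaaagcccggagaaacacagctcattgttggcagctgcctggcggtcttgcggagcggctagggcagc
Map2k2: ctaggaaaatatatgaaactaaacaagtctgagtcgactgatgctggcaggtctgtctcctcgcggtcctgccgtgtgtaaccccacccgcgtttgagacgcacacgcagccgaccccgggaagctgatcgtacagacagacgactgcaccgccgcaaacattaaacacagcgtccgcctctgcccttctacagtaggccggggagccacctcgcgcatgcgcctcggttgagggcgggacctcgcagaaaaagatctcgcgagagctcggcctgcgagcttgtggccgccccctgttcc
Frs2: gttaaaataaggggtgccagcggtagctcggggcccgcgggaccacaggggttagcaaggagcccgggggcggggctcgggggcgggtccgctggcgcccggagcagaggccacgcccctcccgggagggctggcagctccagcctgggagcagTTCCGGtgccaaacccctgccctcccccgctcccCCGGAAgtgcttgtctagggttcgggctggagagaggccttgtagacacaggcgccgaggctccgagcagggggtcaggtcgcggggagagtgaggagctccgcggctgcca
Mcm9: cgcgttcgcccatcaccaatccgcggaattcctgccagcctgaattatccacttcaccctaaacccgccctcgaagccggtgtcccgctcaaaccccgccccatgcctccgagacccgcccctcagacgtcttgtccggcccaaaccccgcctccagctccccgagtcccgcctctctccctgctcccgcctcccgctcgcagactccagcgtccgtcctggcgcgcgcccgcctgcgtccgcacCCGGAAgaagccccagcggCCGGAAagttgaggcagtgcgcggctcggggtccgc
Tcf3: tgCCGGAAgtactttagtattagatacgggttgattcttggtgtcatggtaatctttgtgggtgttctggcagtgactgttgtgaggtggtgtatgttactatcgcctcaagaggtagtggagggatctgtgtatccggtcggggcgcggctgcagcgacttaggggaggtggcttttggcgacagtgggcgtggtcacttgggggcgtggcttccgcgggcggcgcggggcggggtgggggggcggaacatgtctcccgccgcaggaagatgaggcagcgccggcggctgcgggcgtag

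These examples differ in how the peaks sit. At Ndufs7 the ETS1 peak (80249300 to 80249476) and the ETS2 peak (80249268 to 80249454) covered nearly the same bases, and the gene of an asparagine tRNA, n-TNgtt7 (80249159 to 80249232), overlaps the first bases of the printed window. At Cited2 the ETS1 peak (17723116 to 17723292) and the ETS2 peak (17723075 to 17723261) also overlapped. The Ndufs7, Mcm9 and Tcf3 windows surround inner starts, which lie inside the outermost annotated start of the gene. Matches are placed from the inner start, and the distances that follow are from the outermost start. The Frs2 and Mcm9 starts were not without ETS2 peaks: the nearest centre lay 460 bp from the Frs2 start (117147921 to 117148107) and 840 bp from the Mcm9 start (53629073 to 53629259), beyond the window. At the Tcf3 start both lists had a peak. The ETS1 centre was 99 bp away (80433987 to 80434163, just upstream of the window) and the ETS2 centre 91 bp away.

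Chromosome 10 held 7.99% of the ETS1 list and 11.2% of the ETS2 list. This came to 47.3 ETS1 peaks per Mb, the fourth highest value among 19 autosomes, where the other 18 ran from 6.44 to 57.0 with a median of 35.0. For ETS2 it came to 54.7 peaks per Mb, second to chromosome 6 at 103.8, beside a median of 18.9 on the other 18. The ratio of ETS2 to ETS1 peaks was 1.16, and on the other autosomes it ran from 0.444 to 3.0 with a median of 0.510. The chromosome was not gene-rich: its 1001 protein-coding genes gave 7.66 per Mb, rank 10 of 19. Single peaks carry no tag counts in the files used here, so their heights could not be compared.

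**Figure D1:**
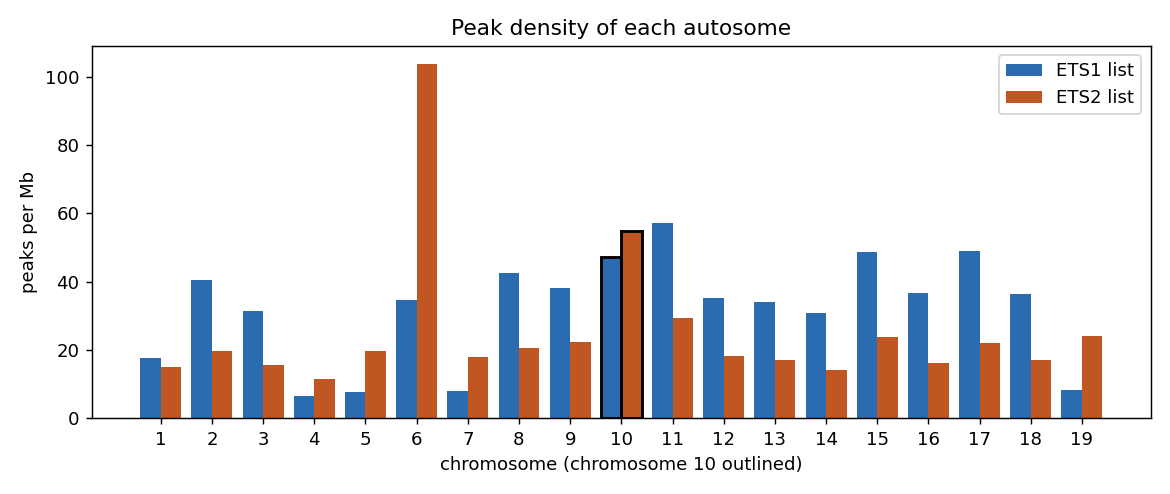
Peaks per Mb on each autosome, with ETS1 bars in blue and ETS2 bars in orange and chromosome 10 outlined. Chromosome 10 stands at 47.3 (ETS1) and 54.7 (ETS2), and chromosome 6 has the highest ETS2 bar, at 103.8.

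Within chromosome 10 the peaks were spread unevenly, and the bins with most peaks included several rich in genes, although the 9 bins with 20 or more protein-coding genes held 1321 of the ETS1 and 1262 of the ETS2 peaks, and the 53 bins with 4 to 9 genes held 2665 and 3174. Of the 1-Mb bins, 128 held a peak, with a median of 36 ETS1 peaks (2 to 299) and 44 ETS2 peaks (0 to 233). The 27 densest bins held 50% of the ETS1 peaks and 30 bins held 50% of the ETS2 peaks. At least 100 peaks were found in 11 bins for ETS1 and in 19 for ETS2, and fewer than 10 in 21 and 18. The antibodies ranked the bins alike: Spearman's rho between both counts was 0.909 over these bins, as a description, since bins share libraries, depth and gene content. On the other autosomes rho ran from 0.700 to 0.945, with a median of 0.895. With the number of protein-coding genes per bin, rho was 0.665 for ETS1 and 0.587 for ETS2. ETS2 peaks outnumbered ETS1 peaks in 77 bins, and the reverse held in 43.

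The densest bin of both lists was 80 to 81 Mb, with 299 ETS1 and 233 ETS2 peaks over 54 protein-coding genes. Sbno2, a strawberry notch homolog, had most peaks there (24 ETS1, 23 ETS2), followed by Gng7, a G protein gamma subunit (20 and 14), and Midn (10 and 8). The next bin, 81 to 82 Mb, held 181 ETS1 and 157 ETS2 peaks, with 28 and 20 in Nfic, a nuclear factor I transcription factor. Pip5k1c, which makes the lipid PIP2, and the repressor gene Zbtb7a followed in that bin. The bin at 128 to 129 Mb held 179 and 181 peaks over 50 genes, led by Rbms2, an RNA-binding protein (12 ETS1, 9 ETS2), whose nearest peaks lay more than 1 kb from its ends. Not every dense bin was rich in genes. The bin at 120 to 121 Mb held 159 ETS1 and 176 ETS2 peaks over 7 genes, and Hmga2, an architectural chromatin protein, carried 53 and 64 of them. The bin at 59 to 60 Mb held 163 ETS1 peaks over 10 genes, of which 38 lay in Mcu, the pore of the mitochondrial calcium uniporter. At 77 to 78 Mb, a bin with 179 ETS2 peaks, Col18a1 carried 46 and the RNA-editing gene Adarb1 carried 18. Both lists had 4 bins in common among their 5 densest and 8 among their 10 densest.

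**Figure D2:**
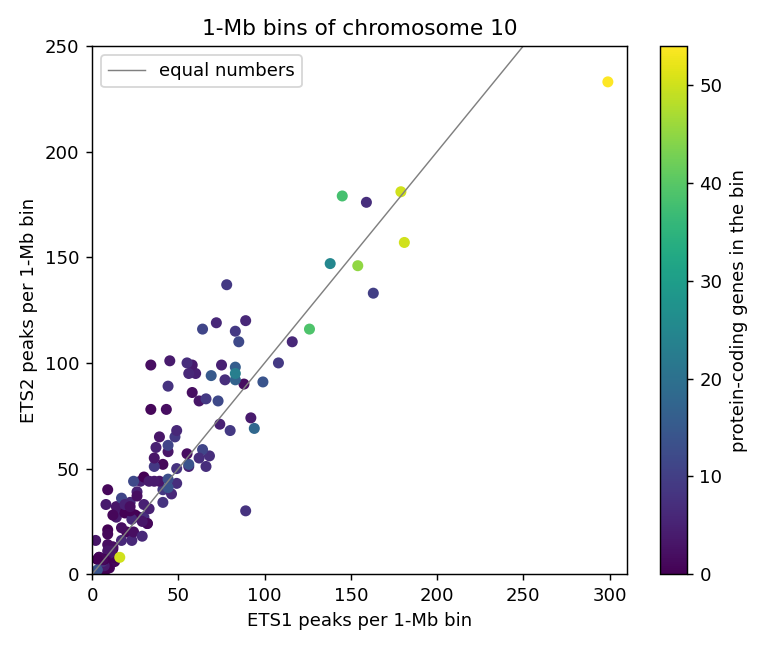
ETS2 against ETS1 peaks in each 1-Mb bin of chromosome 10, coloured by the number of protein-coding genes in the bin. The bin with 299 ETS1 and 233 ETS2 peaks stands at the upper right, and the point far under the line of equal numbers is the bin with 89 ETS1 and 30 ETS2 peaks.

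Some bins departed from the overall ratio. The bin at 8 to 9 Mb, which holds parts of Ust and Sash1, had 34 ETS1 and 99 ETS2 peaks, a ratio of 2.91. The bin at 99 to 100 Mb, with the ERK phosphatase gene Dusp6 and the calcium pump gene Atp2b1, had 45 and 101. The reverse was seen at 22 to 23 Mb, with 89 ETS1 and 30 ETS2 peaks. Within it, 25 ETS1 peaks and 1 ETS2 peak followed each other between 22291159 and 22312090, under the long non-coding RNA genes Gm26740 and C920009B18Rik and no protein-coding gene. The longest stretch without an ETS2 peak ran from 45924622 to 47389319, had no protein-coding gene and held 10 ETS1 peaks. The longest without an ETS1 peak, 28106395 to 28889683, lay over Ptprk and Themis and held 13 ETS2 peaks. The last, partial bin of the chromosome, with olfactory and vomeronasal receptor genes, had 3 ETS1 and 2 ETS2 peaks.

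Peaks of both lists often stood in runs. When peak centres up to 2 kb apart were joined, 4900 of the 13316 peaks stood alone, and 53.4% fell in runs that held both lists. Of 441 runs of 5 or more peaks, 430 held both. The 2 runs with most peaks, 38 each, differed in setting. The first (58206023 to 58221868, 23 ETS1 and 15 ETS2) held no annotated gene and lay beside the Dux tandem repeats. The second (80144552 to 80165864, 20 and 18) lay over Atp5d, a subunit of mitochondrial ATP synthase, and Midn. Other long runs lay within Nfic (21 and 14), within Hmga2 (14 and 18), over Syn3 and Timp3 (9 and 16), and over the cyclin-dependent kinase gene Cdk4 and its neighbour Tspan31 (13 and 11). A run of 13 ETS1 and 10 ETS2 peaks between 57440495 and 57448726 had no annotated gene under it.

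Of the chromosome 10 peaks, 1395 of each list overlapped the other list by at least 1 bp. This was 22.6% of the ETS1 peaks (21.6 to 23.7), beside 15.9% over all chromosomes, and 19.5% of the ETS2 peaks (18.6 to 20.5), beside 19.4%. The share of a list that overlaps moves with the density of the other list, by which the chromosome was chosen, so nothing is read from the higher ETS1 share. On chromosomes 4, 5, 6, 7 and 19, which also have more ETS2 than ETS1 peaks, it was 25.2% to 33.1%. An ETS1-sized window laid anywhere on the chromosome would touch an ETS2 peak over 1.99% of the length, so overlap was 11.4 times as frequent as that. Centres of overlapping peaks lay a median of 63 bp apart, and 42.2% lay within 50 bp. Shared peaks lay at gene ends more often than the others, and peaks of both lists were also denser there. Over the 1-Mb bins the shared share rose with the number of peaks, with rho 0.592 (ETS1) and 0.585 (ETS2). The part of local density in sharing by gene ends, distance or genes per bin was not tested. Among shared peaks 32.5% (30.1 to 35.0) had their centre within 1 kb of an annotated gene end, beside 13.5% (12.5 to 14.5) of the other ETS1 peaks and 13.5% (12.6 to 14.4) of the other ETS2 peaks.

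By distance to a protein-coding gene end, the shared share of ETS1 peaks was 46.9% (43.5 to 50.4) within 1 kb, 21.8% from 1 to 10 kb, 20.7% from 10 to 50 kb, 14.7% from 50 to 100 kb and 11.8% (9.82 to 14.2) beyond. For ETS2 peaks the same classes gave 42.6% (39.4 to 45.8), 21.2%, 17.5%, 12.0% and 8.73% (7.23 to 10.5). Each step outward was lower in both lists. The median distance was 15910 bp for ETS1 and 19498 bp for ETS2, so most peaks of both antibodies lay far from gene ends. The number of genes in a bin moved with sharing too: in the 13 bins with no protein-coding gene 7.69% of ETS1 and 6.40% of ETS2 peaks were shared, and in the 9 bins with 20 or more genes 29.6% and 30.98%.

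Gene ends held 1097 ETS1 peaks, 17.8% (16.8 to 18.7), and 1230 ETS2 peaks, 17.2% (16.4 to 18.1), beside 18.96% and 21.9% over all chromosomes. Windows of 1 kb around all annotated gene ends, non-coding genes included, cover 5.81% of the chromosome, so peaks were 3.06 (ETS1) and 2.97 (ETS2) times as frequent there as length alone gives. At ends of protein-coding genes, 2.78% of the length, they were 4.76 and 4.57 times as frequent. Gene bodies held 53.9% and 54.4% of the peaks on 45.3% of the length, and intergenic sequence 28.3% and 28.4% on 48.9%. The lists were nearly alike in these shares on chromosome 10. By the gene-end share, chromosome 10 ranked 11 of 19 autosomes for ETS1 and 18 of 19 for ETS2. Chromosome 6, the only autosome denser in ETS2 peaks, had the lowest ETS2 share, 12.3%. The chromosome was chosen by density, so nothing is read from the lower ETS2 share or its rank.

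Peaks at gene ends lay mostly at transcription starts. For the 829 protein-coding genes whose strand is given by a RefSeq promoter, 422 (50.9%) had an ETS1 peak at most 1 kb from the start and 150 (18.1%) within 1 kb of the finish. For ETS2 these were 462 (55.7%) and 142 (17.1%). Within 500 bp of a start lay 397 ETS1 and 453 ETS2 centres, 4.93 and 5.75 times the mean per kb found 3 to 5 kb away. The same ratio around finishes was 0.959 and 1.09. Shared peaks were more concentrated still, at 11.95 (ETS1) and 11.2 (ETS2) times around starts. The fullest 250-bp step in both lists was the first downstream of the start, with 157 ETS1 and 173 ETS2 centres.

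**Figure D3:**
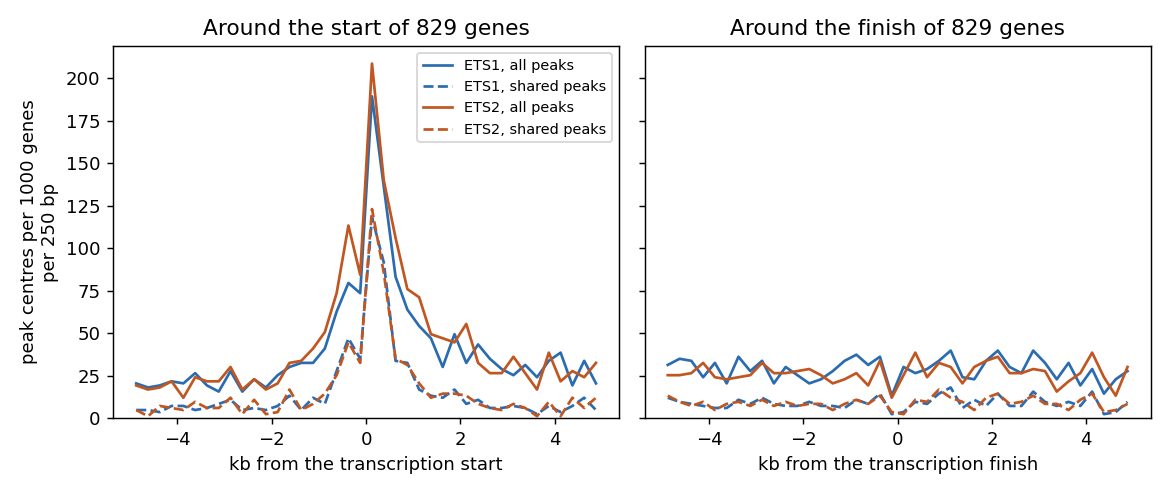
Peak centres per 1000 genes in 250-bp steps around the start (left) and the finish (right) of 829 protein-coding genes of chromosome 10, for all peaks (solid) and peaks shared by both lists (dashed). All lines rise at the start, with the highest step from 0 to 250 bp downstream, and none rises at the finish.

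The deposited files give each peak the score 1, so the order of the rows is the only grading in them, and the value that sorted them is not given in the sources used here. The order runs through the chromosomes from 1 to 19, X and Y again and again, in 198 such passes for ETS1 and 110 for ETS2, with positions rising within a chromosome. Place within a pass therefore says nothing of a peak, and passes are compared as wholes. Before the first pass of 1000 or more peaks, chromosome 10 held 272 of 5876 ETS1 peaks, 4.63% (4.12 to 5.20), and 446 of 4335 ETS2 peaks, 10.3% (9.42 to 11.2). In the next 11 ETS1 passes its share was between 7.74% and 8.71%, and in the 11 ETS2 passes between 10.8% and 12.2%. The ETS1 share was lower again in the twelfth pass, at 6.97%, and after it, at 5.38%. At the top of the ETS1 list chromosome 1 took up much of the room, since 63.5% of its 3442 peaks stood in the first 10% of the order, and its part in the low share of chromosome 10 there was not tested. Sharing fell along the order, from 52.9% (47.0 to 58.8) of the leading chromosome 10 ETS1 peaks to 15.5% in the tenth pass, and from 48.9% (44.3 to 53.5) of the leading ETS2 peaks to 11.2% in the tenth pass, with 17.4% (12.4 to 23.8) in the eleventh. On the other chromosomes sharing fell over the same passes too, from 35.2% to 9.26% for ETS1 and from 52.4% to 12.9% for ETS2. Peaks at gene ends became rarer on chromosome 10 as well, from 55.9% to 10.4% for ETS1 and from 46.4% to 12.5% for ETS2, which stood at 16.8% in the eleventh pass. On the other chromosomes it fell from 36.1% to 13.7% and from 41.9% to 16.6%.

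**Figure D4:**
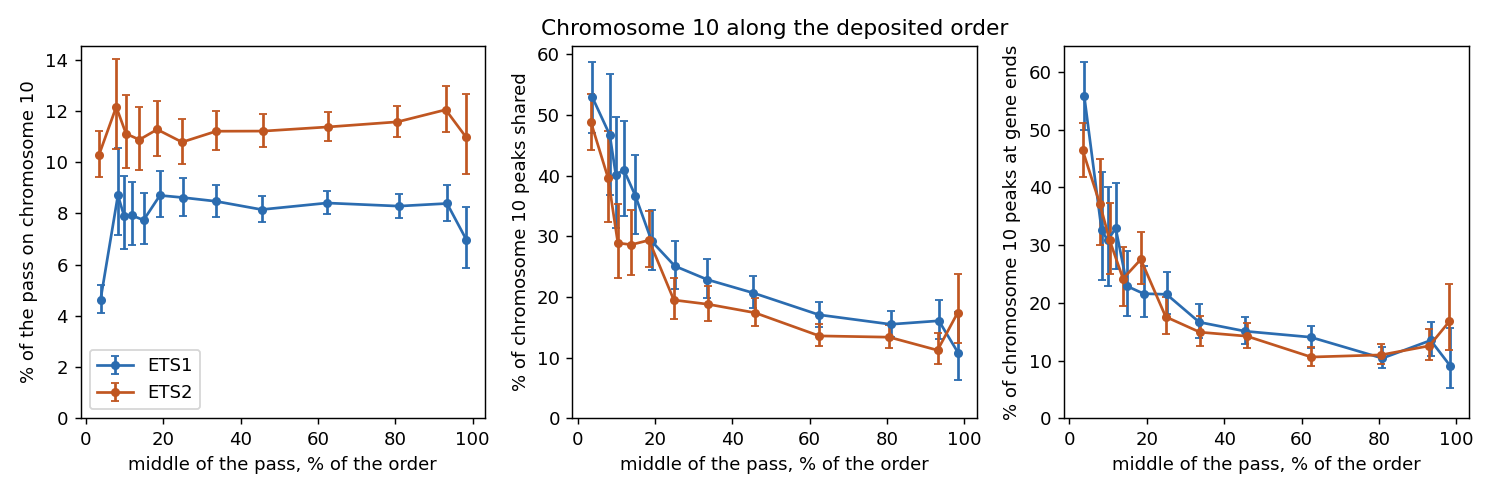
Share of each pass that lies on chromosome 10 (left), and shares of its chromosome 10 peaks that are shared (middle) or at gene ends (right), against the middle of the pass in percent of the deposited order, with 95% Wilson intervals. The first points are the peaks before the passes of 1000 or more peaks: ETS1 starts at 4.63% on the left, and sharing starts at 52.9% (ETS1) and 48.9% (ETS2).

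The first chromosome 10 peaks of the lists differed, and some sites led both. In the ETS1 list 4 of the first 100 peaks lay on chromosome 10, and each was shared and stood at the end of a gene of translation: Eef2, the elongation factor (order 23, 81176686 to 81176862), Naca, a nascent-chain chaperone (33, 128035652 to 128035828), Rps15 (38, 80292512 to 80292688) and Rpl41 (72, 128548895 to 128549071), both ribosomal proteins. Fam229b (order 163) and Pwp1 (178) followed, and the next stood at 1547. In the ETS2 list the first 100 held 0 chromosome 10 peaks, and the first 1000 held 53, beside 6 in the ETS1 list. The first was downstream of Rnf41, a ubiquitin ligase (order 188, 128441827 to 128442013), and the second lay in E030030I06Rik (191), where the ETS1 list had its seventh.

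Of the first 11 ETS2 peaks, 6 had LOC100504180 or Duxf3 as the nearest protein-coding gene and 1 had their neighbour Gm4981, all in the Dux array near 58.2 Mb. ETS1 peaks overlapped each of these, and 3 of the first 11 ETS1 peaks on the chromosome also had LOC100504180 or Duxf3 as the nearest gene. Duxf3 encodes a double homeobox protein of early embryos and lies among tandem copies, where reads can match several copies. Over LOC100504180 and its 10-kb flanks lay 23 ETS1 and 18 ETS2 peaks, 16 of each shared. Duxf3 held 15 of each with 13 shared, in a window that overlaps the former. The next gene-end peak in the ETS2 order outside this array was that of Ndufs7 (415).

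Across the 1001 protein-coding genes of the chromosome, 549 (54.8%, 51.7 to 57.9) were marked by ETS1 and 591 (59.04%, 56.0 to 62.0) by ETS2, beside 39.4% and 39.96% over all chromosomes. A gene counts as marked when a peak centre lies within 1 kb of either outermost end in the annotation, so peaks at inner starts do not count. The share of marked genes moves with the peak density by which the chromosome was chosen, and nothing is read from its height: for ETS1 it was 57.1% on chromosome 11, the densest, and 21.2% on chromosome 4, the sparsest autosome. The order was not strict, since the highest ETS1 share was on chromosome 8 (58.9%) and the lowest on chromosome 7 (18.4%). Both lists marked 476 genes (47.6%, beside 28.7%), ETS1 alone 73 and ETS2 alone 115, which leaves 337 with neither. Those genes were shorter, with a median of 7.29 kb beside 19.9 kb for genes with both. Among the 476, the nearest peaks of both lists were at the same end in 406 and overlapped in 234 (49.2%). No peak of either list lay over the gene and 10 kb around it in 127 genes. Sensory receptor families made up part of these. Of 68 olfactory receptor genes 3 had an ETS1 and 0 an ETS2 peak at an end, and 45 had none over the locus. Of 15 trace amine receptor genes 2 were marked by ETS1 and 0 by ETS2, and of 8 vomeronasal receptor genes 0 had either.

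By number of peaks over the gene and 10 kb around it, long genes led. Syn3, a synapsin, had 55 ETS1 and 102 ETS2 peaks, of which 16 of each were shared. Timp3, the inhibitor of metalloproteinases bound to the matrix, lies within the Syn3 span, and 23 ETS1 and 35 ETS2 peaks lay over it. Hmga2 followed with 60 and 74, Syne1, the nuclear envelope protein nesprin-1, with 35 and 70, and Utrn, the dystrophin relative utrophin, with 52 and 49. Ank3, which encodes ankyrin-G, had more ETS1 peaks (59) than ETS2 peaks (36). Col18a1 (34 and 49), the cytoskeletal gene Epb41l2 (30 and 45), the endocytic receptor gene Lrp1 (30 and 44), Bcr (38 and 32) and Sbno2 (33 and 36) completed the first 10. Per 100 kb of locus, Sbno2 (99.8) and Hmga2 (99.1) stood far above Syne1 (19.1) and Ank3 (18.5), in peaks of both lists together. Utrn, Ank3, Lrp1 and Syn3 had an ETS2 peak within 1 kb of an end but no ETS1 peak there.

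Of 17 vascular genes on the chromosome 13 were marked by ETS1 (76.5%, 52.7 to 90.4) and 12 by ETS2 (70.6%, 46.9 to 86.7), and 10 had both. Both intervals hold the 54.8% and 59.04% of all its protein-coding genes, and the vascular genes were longer, with a median of 63.7 kb beside 17.3 kb. Col18a1, source of the angiogenesis inhibitor endostatin, had overlapping peaks at its start (ETS1 77166129 to 77166305, ETS2 77166224 to 77166410). Rspo3, a Wnt enhancer secreted by endothelium, had them at 29535527 to 29535703 and 29535581 to 29535767. At the start of Ntn4, a basement membrane netrin, the nearest ETS1 peak (93641868 to 93642044) and the nearest ETS2 peak (93641326 to 93641512) did not overlap. Another ETS2 peak overlapped that ETS1 peak. At Ccn2, a matricellular growth factor, the nearest peaks of the lists lay at opposite ends, more than 2 kb apart. Another ETS1 peak overlapped the Ccn2 ETS2 peak. Rap1b, a small GTPase of cell junctions, had its nearest ETS1 peak near the start, where an ETS2 peak overlapped it. The closest ETS2 centre to an end was 235 bp from the Rap1b finish. Marked by ETS1 alone were Ptprb, the endothelial phosphatase VE-PTP, Gja1, the gap junction protein connexin 43, and Hey2, a Notch target. The Ptprb peak (116275539 to 116275715) was 125 bp from its end and 695 bp from the finish of Ptprr, so it counts for both genes, and the Gja1 peak was 997 bp from the start, at the edge of the window. Marked by ETS2 alone were Elk3, itself an ETS factor (93310116 to 93310302, 950 bp from the start), and Igf1 (87858590 to 87858776, 418 bp). Stab2, a scavenger receptor, and Tbxa2r, the thromboxane receptor, had neither, with nearest centres between 1036 and 7061 bp.

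Of 15 matrix and protease genes 7 had an ETS1 peak (46.7%, 24.8 to 69.9) and 11 an ETS2 peak (73.3%, 48.0 to 89.1) at an end, and both intervals hold the 54.8% and 59.04% of all protein-coding genes. All 7 also had the ETS2 peak. Col6a1, a collagen VI chain, and Mmp11, a stromelysin, had overlapping peaks at the start, at 76725731 to 76725907 with 76725752 to 76725938 and at 75932213 to 75932389 with 75932208 to 75932394. Timp3, Col6a2 and Mmp19 had both without overlap of the nearest peaks, though another ETS2 peak overlapped the nearest ETS1 peak of Col6a2. Lama4, a laminin chain of endothelial basement membrane, was marked by ETS2 alone, at 38965921 to 38966107 and 499 bp from its end, while the nearest ETS1 centre was 4567 bp away. Col13a1 (677 bp for ETS2, 20254 bp for ETS1), Dcn and P4ha1 were the others. For Dcn and P4ha1 the nearest ETS1 centres were 1176 and 1028 bp away, just outside the window. Lama2 and Col10a1 were among the 4 with neither.

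Of 16 genes of inflammation and interferon signalling 8 had an ETS1 peak (50%, 28.0 to 72.0) and 12 an ETS2 peak (75%, 50.5 to 89.8) at an end, with 54.8% and 59.04% of all protein-coding genes again inside the intervals. Tnfaip3, the NF-kappaB inhibitor A20, had overlapping peaks at its start (19015060 to 19015236 and 19015043 to 19015229), as did Stat6, which carries interleukin 4 signals (127643072 to 127643248 and 127643030 to 127643216). Ifngr1, a chain of the interferon gamma receptor, Irak3, a brake on Toll-like receptor signalling, and Prdm1 had both without overlap of the nearest peaks. At Ifngr1 another ETS2 peak overlapped the nearest ETS1 peak. The kinase gene Tbk1 (ETS2 peak 121586972 to 121587158, 271 bp from the start) and Stat2 of type I interferon signalling (128270506 to 128270692, 101 bp) were marked by ETS2 alone, with ETS1 centres 2932 and 6677 bp away. Il23a and Socs2 were the other pair. The T-cell cytokine genes Ifng and Il22, with Il20ra and Il22ra2, had neither. The nearest ETS1 centre was 56559 bp from Ifng and 84052 bp from Il22.

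The cell cycle and p53 genes were the most fully marked of the lists with housekeeping and growth signalling genes. Of 18, 15 had an ETS1 peak (83.3%), 17 an ETS2 peak (94.4%) and 0 neither, beside 54.8% and 59.04% of all protein-coding genes. Cdk1, the mitotic kinase (69352573 to 69352749 and 69352680 to 69352866), Cdk17 (93161132 to 93161308 and 93161167 to 93161353) and E2f7, a repressor of E2F targets (110745641 to 110745817 and 110745563 to 110745749), had overlapping peaks at an end. Cdk2 and Cdk4 had both without an overlap of the nearest pair, though another ETS1 peak overlapped the nearest ETS2 peak of Cdk2. At Cdk4 the nearest ETS1 centre was 298 bp from the start and the nearest ETS2 centre 281 bp from the finish, and each overlapped another peak of the other list. Bclaf1 was marked by ETS1 alone. Mdm2, the ubiquitin ligase of p53, was marked by ETS2 (117709925 to 117710111, 740 bp from the start), while its nearest ETS1 centre was 1712 bp away. Sesn1, a p53 target, was marked by ETS2 267 bp from the start, with the nearest ETS1 centre 10181 bp away.

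Growth signalling genes, several of which act upstream of or on ERK, had 13 of 15 (86.7%, 62.1 to 96.3) marked in each list and 12 in both. Of all protein-coding genes 54.8% and 59.04% were marked. The growth signalling genes were also longer, with a median of 78.3 kb beside 17.3 kb, and the part of length was not tested. Map2k2 had overlapping peaks (81105744 to 81105920 and 81105661 to 81105847). Dusp6, the phosphatase of ERK, had an ETS1 peak 687 bp from the start (99263830 to 99264006) and an ETS2 peak 445 bp from the finish (99267841 to 99268027). Frs2, the receptor gene Erbb3 and the SRC-family kinase gene Fyn had both lists at an end. Fyn had its nearest ETS1 peak at the finish and its nearest ETS2 peak at the start, where ETS1 also had a peak. Ptprr was marked by ETS1 alone through the peak it shares with Ptprb, and Igf1 by ETS2 alone. The receptor kinase gene Ros1 had neither, with centres 4556 and 4292 bp away.

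Of 25 transcription and chromatin genes 17 had an ETS1 peak (68%, 48.4 to 82.8) and 19 an ETS2 peak (76%, 56.6 to 88.5) at an end, intervals that hold the 54.8% and 59.04% of all protein-coding genes. Foxo3, a forkhead factor of the insulin pathway, and Myb had shared peaks at the start. For Myb these were at 21160575 to 21160751 and 21160694 to 21160880. Nfic and Nab2, a corepressor of EGR factors, had both lists at an end but the nearest peaks at opposite ends. At the start of each, another ETS1 peak overlapped the nearest ETS2 peak. Dot1l, a histone methyltransferase, was marked by ETS2 159 bp from the start, with the nearest ETS1 centre 2289 bp away. Egr2 and Esr1 had neither within 1 kb, but each had overlapping peaks somewhat further in: 1600 and 1757 bp from the start at Egr2, the early growth response factor (67535981 to 67536157 and 67536133 to 67536319), and 1888 and 1732 bp at Esr1, the oestrogen receptor. Esr1 also had an ETS2 peak (4710077 to 4710263) at an inner start of the gene.

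Of 22 housekeeping genes 19 (86.4%) were marked in each list and 18 in both, beside 54.8% and 59.04% of all protein-coding genes. Txnrd1, a thioredoxin reductase, had overlapping peaks at the finish (82897752 to 82897928 and 82897759 to 82897945). Tfam, the mitochondrial transcription factor, the glycolytic gene Pfkl, the citrate synthase gene Cs and Gpx4, which protects membrane lipids, had both lists at an end without overlap of the nearest peaks. At Tfam another ETS1 peak overlapped the nearest ETS2 peak. Oaz1 was marked by ETS1 alone and Shmt2 by ETS2 alone. Hk1 and Metap2 had neither at an outermost end, but an ETS2 centre lay 17 bp upstream of an inner Hk1 start (62340345 to 62340531) and another 82 bp upstream of an inner Metap2 start (93891191 to 93891377).

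Of 22 genes of other lineages, such as muscle, lens, liver, nerve and myeloid cells, 6 had an ETS1 peak and 8 an ETS2 peak at an end, below the 54.8% and 59.04% of all protein-coding genes. Pmel of pigment cells, Amh, and the neutrophil protease genes Prtn3 and Elane had both. The Prtn3 peaks (79884030 to 79884206 and 79883929 to 79884115) and the Elane peaks (79885306 to 79885482 and 79885301 to 79885487) overlapped and lay between 848 and 944 bp from the ends. Prtn3 and Elane are neighbours in the gene-dense bins around 80 Mb. Syt1 and Rfx6 were marked by ETS1 alone. Myf5, a muscle determination factor, and Mip, a lens aquaporin, were marked by ETS2 alone, and the Mip peak (128232349 to 128232535) also lies 379 bp from the start of Timeless. Myf6 and Kera were among the 12 with neither. The genes of all lists together, 143 when each is counted once, had 93 ETS1 (65.0%) and 105 ETS2 genes (73.4%), of which 85 were in both. Of all 1001 protein-coding genes 54.8% and 59.04% were marked, and 476 by both. Matrix and inflammation genes marked by 1 antibody were all marked by ETS2, 4 in each list. On the whole chromosome 115 genes were marked by ETS2 alone and 73 by ETS1 alone. At Dcn and P4ha1 the ETS1 centre lay just outside the window. With 1 library per antibody the excess of ETS2 in these lists was not tested, and the ETS2 list has more peaks on this chromosome.

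Promoter sequence was compared between 4 kinds of window. Of 1640 RefSeq promoter windows on the chromosome, belonging to 1366 genes, 49 held peak centres of both lists, 84 of ETS1 alone, 112 of ETS2 alone and 1395 of neither. These kinds describe the window and not the whole promoter. The windows end soon after the start, whereas in both lists the fullest step of centres lay 0 to 250 bp downstream. When peaks overlapping the window by 1 bp were counted, 136 windows had both, 131 ETS1 alone, 185 ETS2 alone and 1188 neither. The motifs were searched on both strands, and the longer, CCGGAAGT, contains the shorter. The shorter, CCGGAA, was found in 14.98% of all 32544 mouse promoter windows of this length. On chromosome 10 it was found in 40.8% (28.2 to 54.8) of windows with both, 34.5% (25.2 to 45.2) with ETS1 alone, 18.8% (12.6 to 27.0) with ETS2 alone and 11.2% (9.63 to 12.9) with neither. CCGGAAGT, in 3.92% of all windows, was found in 16.3% (8.51 to 29.0), 16.7% (10.2 to 26.1), 2.68% (0.915 to 7.58) and 2.94% (2.17 to 3.96). Counted by overlap of 1 bp, CCGGAA was in 38.2%, 31.3%, 22.2% and 7.74%, and CCGGAAGT in 14.7%, 14.5%, 4.86% and 1.52%, in the same order. The statements that follow are for centres inside the window. The counting intervals of ETS1 alone and ETS2 alone overlapped slightly for the shorter motif and not for the longer, and this difference between single libraries was not tested. The bare core GGAA was in 95.96% of all windows and separates nothing.

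**Figure D5:**
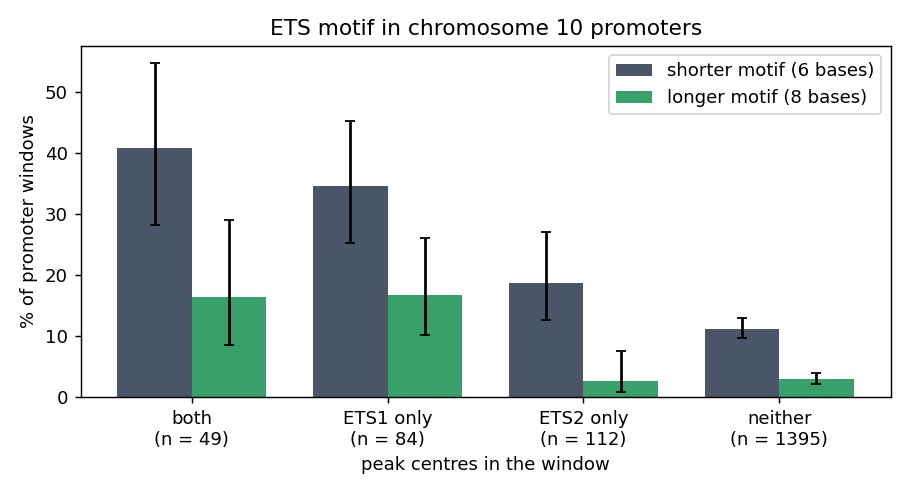
Share of chromosome 10 promoter windows that hold the shorter or the longer ETS motif, by the peak centres in the window, with 95% Wilson intervals. Windows with ETS1 centres (both, 49, and ETS1 only, 84) stand at 34.5% to 40.8% for the shorter motif, and windows with ETS2 centres only (112) at 18.8%.

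The windows also differed in base composition. The median number of CG dinucleotides was 25 with both, 21 with ETS1 alone, 19.5 with ETS2 alone and 6 with neither. GGGCGG, the GC box, which is no ETS sequence, was in 57.1%, 54.8%, 53.6% and 32.5%. Peaks of both lists were more frequent in windows rich in CG: of 454 windows with 20 or more CG, 18.5% (15.2 to 22.3) held an ETS1 and 20.5% (17.0 to 24.4) an ETS2 centre, and of 576 with at most 4, 2.78% and 1.74%. Among windows with 20 or more CG, CCGGAA was in 37.8% with both (n = 37), 46.8% with ETS1 alone (n = 47), 25% with ETS2 alone (n = 56) and 23.2% with neither (n = 314). In that class the ETS2-alone share was near that of windows with neither, and the ETS1-alone share (33.3 to 60.8) lay above it (18.9 to 28.2). On all other chromosomes the shares of CCGGAA were 42.5%, 40.4%, 27.5% and 12.6%, in the same order, and those of CCGGAAGT were 16.3%, 15.3%, 7.38% (6.08 to 8.92) and 2.94% (2.75 to 3.15). There windows with ETS2 alone held CCGGAAGT more often than windows with neither, whereas on chromosome 10 the share with ETS2 alone rests on 3 windows. The part of base composition in these shares was not tested further.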

How the data were processed

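The submitters' processing notes list CASAVA 1.8, Bowtie2, HOMER and 2 genome builds, mm9 and mm10. Peaks were called, per the file headers, by HOMER findPeaks on tag directories named for mm10, with no control, a false discovery rate of 0.01 and a threshold of 30 tags, out of 143778022 (ETS1) and 134607908 (ETS2) tags. Only 1.89% (ETS1) and 1.53% (ETS2) of the tags lay in peaks. The headers give 12.7 and 12.5 expected tags per peak, and the local filter removed 0 peaks in each list. The deposited score is 1 in every row, so no peak could be graded by it. Deposited peaks have fixed widths, 177 bp (ETS1) and 187 bp (ETS2). Neighbouring peaks of a list are at least 354 and 372 bp apart per the file headers, which caps local density.

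Positions were read as 1-based mm10. Genes came from a RefSeq table of GRCm38.p6 and promoters with strand from RefSeq, which matched 829 of 1001 protein-coding genes. Chromosome length was taken as the last annotated base or peak. Overlap meant at least 1 bp. A peak belonged to a gene end if its centre was within 1 kb, otherwise to a gene body or to intergenic sequence. With 1 library per antibody no test was made. Values were computed with Python 3.11.15, pandas 2.3.3, numpy 2.4.6 and scipy 1.17.1, and the counting steps were tested on simulated data. Named genes are the first 5 of each list with both peaks, up to 2 each with ETS1 only, ETS2 only and neither, in list order, the genes at the first 10 peaks of each order, the 10 genes with most peaks and the leading genes of the 5 densest bins. Others were chosen after their values were seen. A gene taken by this rule is not reported here. The members and gene lists were chosen with earlier results of these data known.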

Additional observations from a re-analysis of the deposited data

How the results depend on the processing

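No paired analysis was possible because there is 1 library per antibody and the labels give no replicate numbers. Of 123 recomputed values, 93 stayed within 1.5 times the reported value (counts and densities) or within its 95% interval (shares and medians). These bounds are wide: genes with an ETS1 peak numbered 454 within 500 bp, 649 within 2.5 kb and 450 in the first 50% of the order, beside 549, and genes with both 352, 576 and 352, beside 476. When the separate gene lists are left out, 48 recomputed values stayed and 27 moved. Every recomputed value of the shared share and of the gene-end share moved outside its interval. Without the 5 densest bins the density was 41.3 (ETS1) and 49.5 (ETS2) peaks per Mb. The ETS1 and ETS2 density was 24.1 and 28.4 peaks per Mb in the first 50% of the order. The shared share became 15.5% and 12.8% when 50% of the width had to overlap, 32.5% and 28.0% for centres within 500 bp, 20.5% and 17.4% in the first 50% of each list, and 20.8% and 17.3% without the 5 densest bins of either list. The gene-end share became 11.2% and 10.8% within 500 bp, 29.5% and 28.3% within 2.5 kb, 13.2% and 12.7% for protein-coding genes only, and 23.0% and 22.7% in the first 50%. The median place in the order, 45.7% and 48.6%, became 45.5% and 48.5% without unplaced contigs and 45.4% and 45.9% by the mean place of the pass, and without the 5 densest bins 61.3% and 48.7%. Places jump between passes, so this median locates chromosome 10 poorly. In promoters, counting peaks that overlap the window by 1 bp gave 7.74% (CCGGAA) and 1.52% (CCGGAAGT) in windows with neither, and windows with 20 or more CG gave 23.2% and 6.05% there and 46.8% for CCGGAA with ETS1 alone. The motif and pass settings were added after seeing the data. Transcription genes with ETS1 fell to 11 in the first 50%, and genes of other lineages with ETS2 to 2 within 500 bp and 5 in the first 50%. Without tag counts per peak, weak and strong peaks weigh the same. No input library was analysed, so the share of peaks that an input would also give was not tested.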

Other observations

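Of 11 transfer RNA genes of chromosome 10, 8 had an ETS1 peak within 1 kb (72.7%, 43.4 to 90.3) and 10 an ETS2 peak (90.9%, 62.3 to 98.4). The shares of all protein-coding genes were 54.8% and 59.04%, and the ETS1 interval holds the former. Both lists had a peak at 8. The genes are not independent, since n-TFgaa3 and n-TNgtt7 have the same nearest peaks, as do n-TWcca2 and n-TDgtc16. RNA polymerase III transcribes these genes. Their peaks often coincide with those counted for protein-coding neighbours: the pair n-TFgaa3 and n-TNgtt7 lies with its middles within 105 bp of the Ndufs7 end, and the pair n-TWcca2 and n-TDgtc16 within 380 bp of the Tmpo end, where a shared peak (91181498 to 91181674 in the ETS1 list, 91181496 to 91181682 in the ETS2 list) begins after n-TWcca2 (91181412 to 91181483). The ETS1 peak 556 bp from the Smarcc2 start (128458538 to 128458714) overlaps n-TScga2 (128458464 to 128458545). Which gene such a peak belongs to was not tested.

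Non-coding genes otherwise had fewer peaks at their ends than protein-coding genes. Of 672 long non-coding RNA genes 189 (28.1%, 24.9 to 31.6) had an ETS1 and 219 (32.6%, 29.2 to 36.2) an ETS2 peak, and of 53 microRNA genes 16 and 18, with Mirlet7i, a let-7 precursor, among the 10 with both. Of 56 small nucleolar RNA genes 10 and 12 had a peak, and of 53 small nuclear RNA genes 5 and 6. Of 401 pseudogenes 43 (10.7%, 8.06 to 14.1) and 35 (8.73%, 6.34 to 11.9) had a peak.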
